A study of Homo sapiens with 16 samples.

Results

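Transcripts of caspases, of the proteins that hold caspases in check and of the apoptosome scaffold APAF1 were followed in U937 cells, a human histiocytic lymphoma line, during treatment with UNBS1450. The 10 genes were CASP2, CASP6, CASP8, CASP9, CASP10, CFLAR, XIAP, BIRC2, BIRC3 and APAF1, and every array spot whose annotation gives one of these symbols was taken. Of these, 9 genes had values, on 26 of the 28970 spots with a single gene symbol, which stand for 17329 genes. CASP8 had 12 spots, CASP2 and CASP10 had 3 each, CASP9 and CFLAR had 2 each, and CASP6, XIAP, BIRC2 and APAF1 had 1 each. No spot used here carries the symbol BIRC3, so this gene has no value below.

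UNBS1450 is a hemi-synthetic cardenolide, a cardiac glycoside that blocks the sodium pump of the plasma membrane, and it was given at 20 nM to exponentially growing cells for 3, 6 or 9 h. Each of 16 Agilent arrays of 2 colours paired RNA of a treated culture with that of a culture without agent taken at the same time, each in a dye of its own. The 4 biological replicates of a time point had the treated RNA in Cy5 in replicates 1 and 2 and in Cy3 in replicates 3 and 4, so that dye and replicate pair cannot be told apart. At 0 h the methods give no treatment, although the labels name the agent there too, and the 0 h arrays serve below as the background. Some label fields spell the line U397.

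Caspases are proteases that cut after aspartate residues and are made as inactive precursors. Initiator caspases are switched on in large assemblies, such as the death receptor complex for caspase-8 and caspase-10 or the APAF1 apoptosome for caspase-9, and they in turn cut executioner caspases. Inhibitor of apoptosis proteins (IAPs) bind caspases or ubiquitinate proteins of these assemblies, and control of the pathway lies largely in protein cleavage and binding, which arrays of RNA do not see.

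All values are log2 ratios of treated over control, in which 0 means equal signal in both dyes. They carry no level, so genes cannot be ranked by abundance, and whether a spot was detected was not used here. A spot was called when the fold change reached 1.3 in either direction and the adjusted p was under 0.05 (limma, Benjamini-Hochberg over all 28970 spots). Spots of 1 gene are numbered, and number 1 has the largest F-statistic over 3, 6 and 9 h, a choice that favours the spot that moves most. The same choice was made for all 17329 genes where they are set beside the members. Among the members it had more spots per gene to choose from (26 for 9 genes) than among all genes (28970 for 17329).

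No member was called at any time point. The count was 0 of 26 spots for 0, 3 and 6 h, where 0% of all spots were called, and 0 of 26 for the 9 h arrays, where 147 spots or 0.507% of all were called. The smallest adjusted p of the 26 spots in time order was 0.8873, 0.9998, 0.5813 and 0.1235, the last for APAF1 at 9 h. The 95% confidence intervals of the 26 spots reached a fold of at most 1.435 in either direction before treatment and of 1.335 and 1.347 after 3 and 6 h, each for CASP2 spot 2. The farthest at 9 h was 1.505, for CASP2 spot 1.

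**Figure D1:**
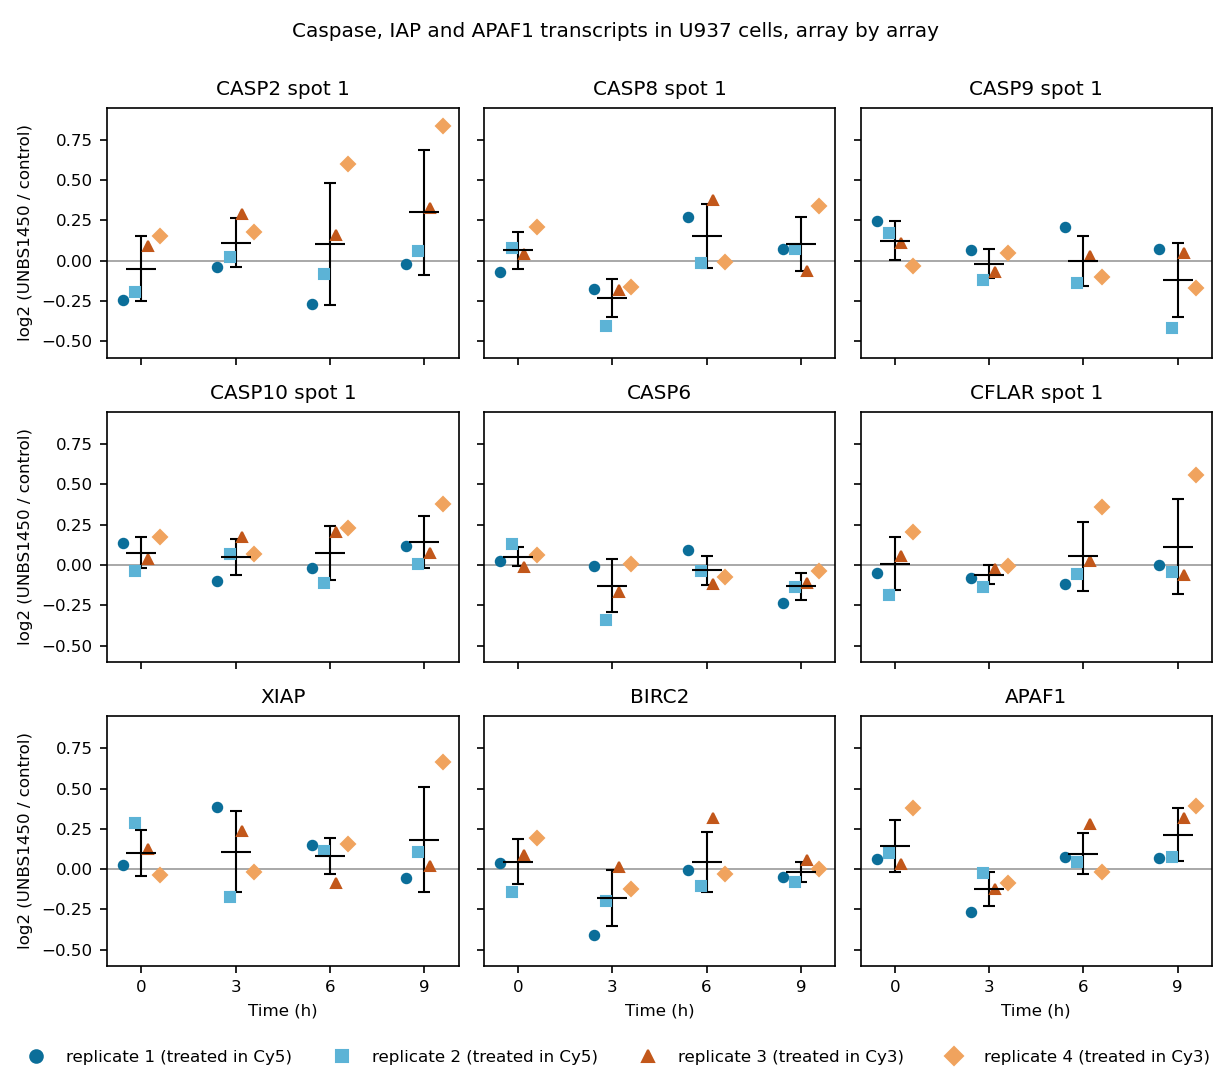
Log2 ratio of UNBS1450-treated over control cells (vertical axis) against time in hours (horizontal axis) for the first spot of each of the 9 measured genes. Each marker is 1 array, the long bar is the mean of 4 arrays and the whiskers are 1 SD. At 9 h the replicate 4 marker of CASP2, CFLAR and XIAP lies at 0.83, 0.56 and 0.67, apart from the other 3 replicates of the same gene.

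Without regard to calls, the median of the 9 first spots was 0.064, −0.061, 0.076 and 0.11 in order of time, beside −0.0028, −0.0027, −0.0051 and 0.0023 for all genes. Of the 9 genes, 8 lay above 0 before treatment, and 3, 7 and 6 did so after 3, 6 and 9 h. Of all genes 48.6% lay above 0 before treatment, and 48.7%, 47.7% and 50.8% after 3, 6 and 9 h. The sizes of the ratios, taken without sign, had medians of 0.0645, 0.113, 0.0758 and 0.132 in the same order, beside 0.0559, 0.0538, 0.0684 and 0.0874 for all genes. At 0 h, where both dyes held untreated cells by the methods, the members thus already had ratios of about the size seen at 6 h.

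At an unadjusted p under 0.05 the share of member spots was above that of all spots at 3 h and below it at 0, 6 and 9 h. At 0 h no member spot reached it, beside 5.71% of all spots. At 3 h 3 of 26 did (CASP8 spot 1, BIRC2 and CASP6, all below 0), beside 3.94% of all. At 6 h there were 0, beside 8.82%. At 9 h there were 3 of 26 (APAF1 and CASP2 spot 1 above 0, CASP6 below), beside 18% of all. These values are descriptions and not calls.

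**Figure D2:**
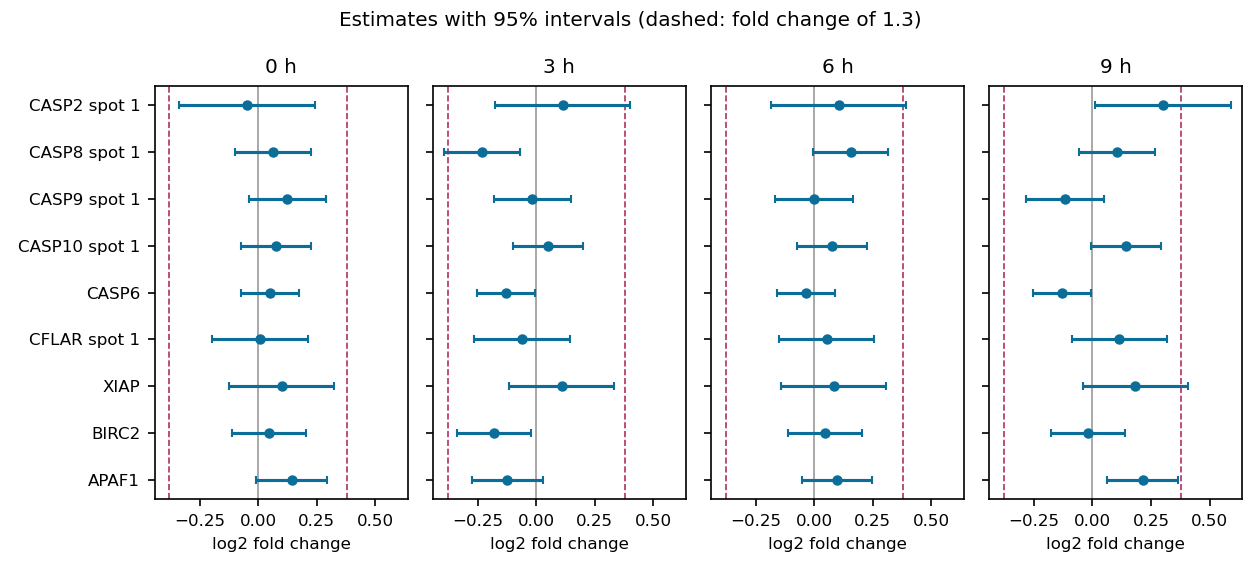
Estimated log2 fold change (horizontal axis) of the first spot of each gene (rows) at 0, 3, 6 and 9 h (panels), with 95% confidence intervals from the limma fit. The dashed lines mark a fold change of 1.3 in either direction. At 9 h the intervals of APAF1, CASP2 and CASP6 leave out 0, and no estimate lies beyond a dashed line.

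The genomic stretch before the start is shown for the 3 genes whose interval left out 0 at 9 h, APAF1, CASP6 and CASP2, so that their promoters can be read beside their values. Of the windows of CASP2, the one before the annotated start of the gene is shown. Each run is the 250 bases before a RefSeq start on GRCh38.p14, written 5′ to 3′ on the strand of the gene. The window of CASP6 belongs to a start that lies inside the annotated gene. RefSeq windows were at hand for 9 of the 10 genes and not for CASP10. Capitals mark a GC box (GGGCGG) or a CCAAT box (CCAAT), read on either strand, so that CCGCCC and ATTGG are capitals too.
APAF1, chr12:98645040-98645289, plus strand: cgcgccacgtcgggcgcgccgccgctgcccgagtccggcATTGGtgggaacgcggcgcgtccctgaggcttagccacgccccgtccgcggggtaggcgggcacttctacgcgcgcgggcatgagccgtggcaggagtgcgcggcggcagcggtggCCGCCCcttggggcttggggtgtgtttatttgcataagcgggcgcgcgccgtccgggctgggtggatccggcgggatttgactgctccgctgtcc
CASP6, chr4:109703446-109703695, minus strand: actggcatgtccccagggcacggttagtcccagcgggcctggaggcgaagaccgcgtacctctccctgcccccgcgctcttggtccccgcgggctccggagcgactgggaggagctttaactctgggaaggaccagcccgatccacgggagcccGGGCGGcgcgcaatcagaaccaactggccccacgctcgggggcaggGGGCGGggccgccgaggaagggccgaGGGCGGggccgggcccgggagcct
CASP2, chr7:143288101-143288350, plus strand: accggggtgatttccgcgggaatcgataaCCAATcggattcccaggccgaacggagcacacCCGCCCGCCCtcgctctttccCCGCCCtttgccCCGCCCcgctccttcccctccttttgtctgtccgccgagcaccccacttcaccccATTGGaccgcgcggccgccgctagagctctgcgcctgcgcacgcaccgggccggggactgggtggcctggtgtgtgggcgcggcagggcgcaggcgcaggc

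The 3 windows shown are rich in G and C, with 73.6% in APAF1, 74% in CASP6 and 71.2% in CASP2, beside a median of 58% over 35116 windows of this length. The other CASP2 window, before a start farther into the gene, had 44% and held neither box. APAF1 held 1 GC box and 1 CCAAT box, CASP6 held 3 GC boxes, and CASP2 held 4 GC boxes, of which the first pair overlap by some bases, and 2 CCAAT boxes. A GC box was found in 42.6% of all windows and a CCAAT box in 32%. The 9 genes with RefSeq windows have 19 of them, since some have several starts, and a GC box was in 11 and a CCAAT box in 4. A TATA box (TATAAA, in 10.7% of all windows) was in 1 member window, a CRE (TGACGTCA, 1.65%) only in 1 window of BIRC2, and an NF-kB motif (6.88%) only in 1 window of BIRC3. No member window held an E2F motif (TTTCGCGC, TTTGGCGC or TTTCCCGC, 2.32%). A match describes the letters and no more.

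APAF1 (chr12:98645290-98735433, GRCh38.p14) encodes the scaffold that, with cytochrome c, assembles the apoptosome on which caspase-9 is activated. At 9 h its 4 arrays gave 0.072, 0.077, 0.32 and 0.39 in replicates 1 to 4, all above 0, with the pair of replicates treated in Cy3 higher than the pair treated in Cy5. The mean was 0.21 ± 0.16 (SD, n = 4), a fold of 1.16 with a 95% interval of 1.045 to 1.288. The adjusted p was 0.1235, so the gene was not called. At 0 h the arrays gave 0.060, 0.10, 0.033 and 0.38, again all above 0, with a mean of 0.14, and the difference of 9 h over 0 h was 0.071 (limma, adjusted p = 0.8376).

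The lowest APAF1 ratios were those of 3 h. The arrays gave −0.27, −0.022, −0.12 and −0.084, all below 0 and so below all 4 arrays of 0 h and of 9 h, with a mean of −0.12. At 6 h they gave 0.075, 0.047, 0.28 and −0.015, with a mean of 0.097. The treated over control ratio differed by −0.27 between 3 h and 0 h (limma, adjusted p = 0.6555) and by 0.34 between 9 h and 3 h (adjusted p = 0.3318), the second contrast having been added after the values were seen. Neither was called.

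Having all 4 arrays of a time point on the same side of 0 was not rare on these arrays. At 9 h, 2 of 26 member spots (APAF1 and CASP10 spot 1) lay above 0 on all 4, beside 9.72% of all spots, and 1 (CASP6) lay below on all 4, beside 10.3%. At 6 h the counts were 0 above, beside 9.35%, and 6 below, all of CASP8, beside 9.18%. These 6 carry the same transcript identifier and moved together, so they stand for 1 gene. At 3 h the counts were 0 above, beside 5.09%, and 4 below, beside 7.93%, namely APAF1, CASP8 spot 1 and both CFLAR spots. At 0 h there were 2 above (APAF1 and CASP10 spot 3), beside 5.69%, and 1 below (CASP2 spot 3), beside 6.9%.

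CASP9 (chr1:15491401-15524912) encodes the initiator protease of the apoptosome. Its first spot gave 0.25, 0.17, 0.11 and −0.032 at 0 h, with a mean of 0.13, and 0.070, −0.12, −0.069 and 0.051 at 3 h, with a mean of −0.017. At 6 h it gave 0.21, −0.14, 0.027 and −0.10, with a mean of −0.0010. At 9 h the values were 0.074, −0.42, 0.046 and −0.17, with a mean of −0.12 and arrays on both sides of 0. Without replicate 2 the mean was −0.017. The difference of 9 h over 0 h was −0.24 (adjusted p = 0.5635).

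The other CASP9 spot, annotated to the same transcript, followed the first one poorly, with a correlation of 0.21 over the 16 arrays. At 9 h it gave 0.30 and 0.030 with treated RNA in Cy5 and −0.35 and −0.40 with treated RNA in Cy3, and its mean was −0.11. The means by dye were 0.17 in Cy5 and −0.38 in Cy3, so the sign of this spot went with the dye orientation at this time.

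CASP2 (chr7:143288351-143307696) encodes an initiator protease that is activated on the PIDD1 and CRADD platform and is known for its part in the response to DNA damage. At 9 h its first spot gave −0.021, 0.058, 0.33 and 0.83 in replicates 1 to 4, so that replicate 4 stood highest and both replicates with treated RNA in Cy5 lay near 0. The mean was 0.30 ± 0.39 (SD, n = 4), a 1.231-fold estimate with an interval of 1.007 to 1.505 (limma, adjusted p = 0.2587). Without replicate 4 the mean was 0.12 (adjusted p = 0.6802). With a replicate block the adjusted p was 0.02631 and with a dye coefficient 0.04482, at the same mean, which stays below a fold change of 1.3, while over all 13 alternatives the adjusted p ran up to 0.718.

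The same order by dye held at every time for this spot. The mean of the replicates with treated RNA in Cy5 and of those with treated RNA in Cy3 was −0.22 and 0.12 without treatment, −0.010 and 0.24 after 3 h, −0.17 and 0.38 after 6 h, and 0.018 and 0.58 after 9 h. At 3 h the 4 arrays gave −0.041, 0.021, 0.29 and 0.18, and at 6 h −0.27, −0.081, 0.16 and 0.60. The part of the dye in the 9 h value beyond the dye coefficient was not tested.

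The other CASP2 spots, annotated to the same transcript, moved with the first, with correlations of 0.859 to 0.958 among the 3. Spot 2 averaged −0.22, 0.12, −0.13 and 0.11 at 0, 3, 6 and 9 h, and spot 3 averaged −0.25, 0.084, −0.065 and 0.15. At 9 h replicate 4 was the highest array of both, at 0.60 in each. Spot 3 lay below 0 on all 4 arrays of 0 h (−0.25, −0.58, −0.085 and −0.078), and its difference of 9 h over 0 h was 0.39 (adjusted p = 0.5624).

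CASP8 (chr2:201233463-201287711) encodes the initiator protease of death receptor signalling. Its first spot was lower in treated cells on all 4 arrays of 3 h, at −0.18, −0.41, −0.18 and −0.16. The mean was −0.23 ± 0.12 (SD, n = 4), a fold of 0.853 with an interval of 0.762 to 0.954 (limma, adjusted p = 0.9998). At 0 h the same spot gave −0.069, 0.077, 0.042 and 0.21. It gave 0.27, −0.016, 0.37 and −0.0093 after 6 h and 0.071, 0.070, −0.065 and 0.34 after 9 h of treatment. The 3 h arrays thus lay below all arrays of the other 3 time points. The difference was −0.29 for 3 h over 0 h (adjusted p = 0.6555), 0.38 for 6 h over 3 h (adjusted p = 0.5643) and 0.33 for 9 h over 3 h (adjusted p = 0.3318).

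Of the remaining CASP8 spots, 2 to 11 did not share this course. They carry the same transcript identifier as spot 1 (NM_033355) and moved together, with correlations of 0.703 to 0.970 over the 16 arrays. At 3 h their mean over the 10 spots was 0.28, −0.13, 0.13 and 0.018 in replicates 1 to 4, with an average of 0.075 ± 0.17 (SD, n = 4). The 6 h arrays gave −0.20, 0.0083, −0.19 and −0.15, with an average of −0.13 ± 0.097, and the 9 h arrays −0.31, −0.059, 0.033 and −0.0082, with an average of −0.087 ± 0.16. Where spot 1 was low the 10 spots were on average above 0, and where it was high they were below.

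The correlation of spot 1 with these 10 spots lay between −0.44 and −0.14. Spot 12, annotated to another transcript (NM_033358), correlated with spot 1 at 0.53, was likewise below 0 at 3 h and above 0 at 6 h, and averaged 0.065, −0.13, 0.046 and 0.0038 at 0, 3, 6 and 9 h. Among the 10 spots the SD between spots of an array was 0.0569, and the SD between arrays of a time point was 0.142, so repeated spots measured each array more closely than arrays of a time point matched each other. For 6 h over 3 h, spots 2, 3 and 7 differed by −0.25, −0.26 and −0.22, opposite in sign to spot 1, each with an interval that left out 0 and none called. The mean of all 12 spots at 3 h was 0.033. The probe sequences were not used here, so which exons each spot reads is not given.

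**Figure D3:**
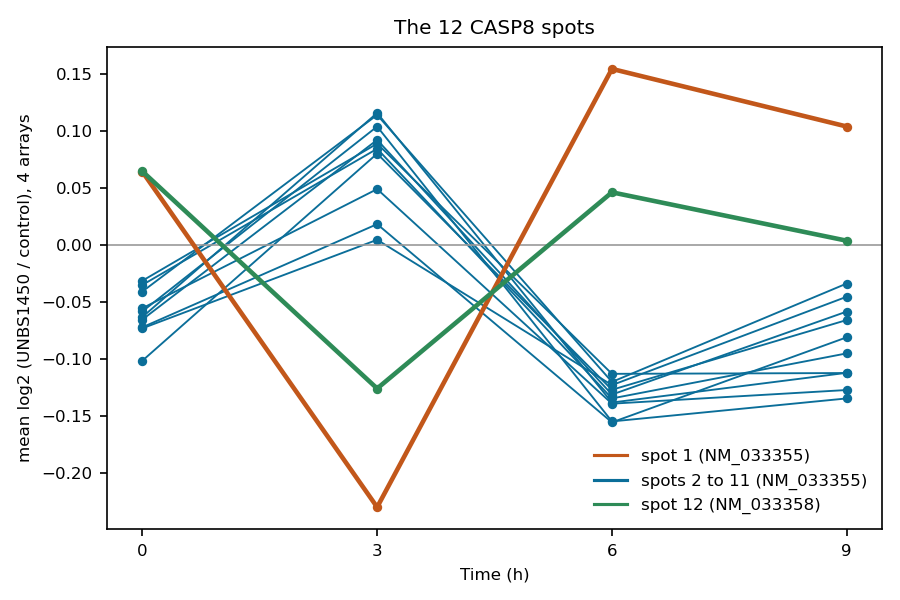
Mean log2 ratio of UNBS1450-treated over control cells over 4 arrays (vertical axis) against time in hours (horizontal axis) for each of the 12 CASP8 spots. Spot 1 goes below 0 at 3 h (−0.23) and above 0 at 6 h (0.15), whereas spots 2 to 11 lie above 0 at 3 h and below 0 at 6 h.

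CASP10 (chr2:201183141-201229406), the close relative of CASP8 at death receptors, stayed near 0. Its first spot averaged 0.077, 0.050, 0.076 and 0.14 in order of time. The 9 h arrays gave 0.12, 0.0030, 0.077 and 0.38, all above 0 with replicate 4 highest (95% interval of the mean −0.0044 to 0.29, adjusted p = 0.2938). Spots 2 and 3 averaged 0.074 and 0.075 at 9 h, and the 3 spots correlated at 0.665 to 0.822.

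CFLAR (chr2:201116164-201176687) encodes FLIP, a catalytically inactive relative of caspase-8 that blocks its activation at death receptors. At 3 h its first spot gave −0.078, −0.14, −0.022 and −0.0086, all below 0, with a mean of −0.061. At 9 h it gave 0.0026, −0.041, −0.060 and 0.56, and the mean of 0.11 (limma, adjusted p = 0.5953) rested on replicate 4, being −0.033 without it. The other spot, annotated to another transcript, averaged −0.034 at 3 h and −0.051 at 9 h and did not follow the first (correlation −0.11 over 16 arrays). CFLAR, CASP10 and CASP8 lie close together on chromosome 2, and at 3 h their first spots averaged −0.061, 0.050 and −0.23.

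CASP6 (chr4:109664388-109709767) encodes an executioner protease that cuts nuclear lamins. At 9 h it was lower in treated cells on all 4 arrays, at −0.24, −0.14, −0.11 and −0.035, with a mean of −0.13 ± 0.084 (SD, n = 4). The fold was 0.913 with an interval of 0.838 to 0.995 (limma, adjusted p = 0.2453). At 3 h the arrays gave −0.0065, −0.34, −0.17 and 0.0063, a mean of −0.13 (adjusted p = 0.9998) that came mostly from replicates 2 and 3 and was −0.057 without replicate 2. At 6 h they gave 0.096, −0.040, −0.12 and −0.073, with a mean of −0.034, and at 0 h 0.027, 0.13, −0.012 and 0.062, with a mean of 0.051. The difference from 0 h was −0.18 both at 3 h (adjusted p = 0.6624) and at 9 h (adjusted p = 0.5624).

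XIAP (chrX:123859708-123913972), the IAP that binds and inhibits active caspases directly, gave 0.39, −0.17, 0.24 and −0.018 at 3 h and 0.15, 0.11, −0.086 and 0.15 at 6 h. At 9 h it gave −0.056, 0.11, 0.017 and 0.67, a mean of 0.18 with an interval of −0.041 to 0.41 (adjusted p = 0.3898). Without replicate 4 the mean was 0.023. At 0 h the arrays gave 0.026, 0.29, 0.12 and −0.038, with a mean of 0.10, and of the 9 h arrays replicates 2 and 3 lay within the range of these.

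BIRC2 (chr11:102347214-102378670) encodes cIAP1, a ubiquitin ligase of TNF receptor complexes. At 3 h it gave −0.41, −0.20, 0.012 and −0.13, lower in treated cells in 3 of 4 replicates. The mean was −0.18 with an interval of −0.34 to −0.022, a fold of 0.883 (limma, adjusted p = 0.9998), and without replicate 1 it was −0.10. At 6 h it gave −0.0038, −0.11, 0.32 and −0.032, and at 9 h −0.048, −0.081, 0.059 and −0.0002, with a mean of −0.018. At 0 h it gave 0.040, −0.14, 0.087 and 0.19, a range that overlaps that of 3 h. The difference was −0.23 for 3 h over 0 h (adjusted p = 0.6624) and 0.22 for 6 h over 3 h (adjusted p = 0.5848). BIRC3 (chr11:102317484-102339403), which encodes cIAP2 and lies beside BIRC2, was not analysed here.

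**Figure D4:**
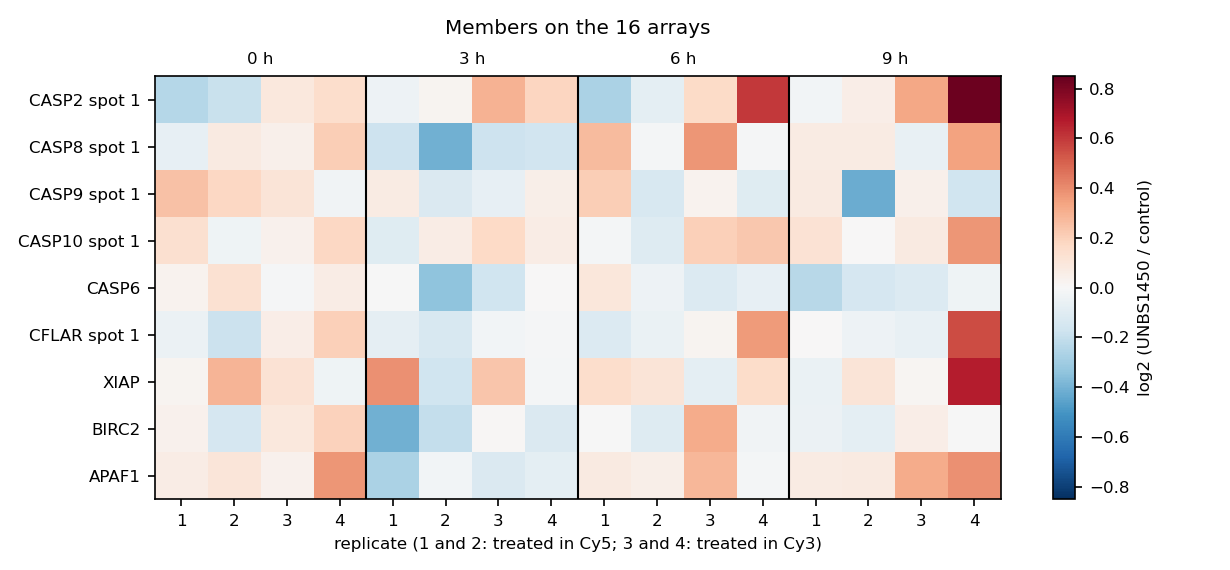
Log2 ratio of UNBS1450-treated over control cells (colour) for the first spot of each of the 9 measured genes (rows) on the 16 arrays, ordered by time and replicate (columns). The deepest red squares, CASP2 at 0.83 and XIAP at 0.67, stand in the column of replicate 4 at 9 h.

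The array of replicate 4 at 9 h stood apart. The median of the 9 first spots there was 0.38, with 6 of 9 above 0 beside 52.5% of all spots. On the other 9 h arrays the median was 0.0026, 0.0030 and 0.046. The SD of all spots was 0.417 on this array and 0.140 to 0.266 on every other array. Within a time point, arrays of the same dye orientation correlated at 0.0493 to 0.605 over all spots and arrays of opposite orientation at −0.267 to 0.156. The part of this array and of the dye in the members' values was not tested beyond the refits given here.

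No member was called in any comparison between time points, and neither was any other spot (0% for 3, 6 and 9 h over 0 h, for 6 and 9 h over 3 h and for 9 h over 6 h). At an unadjusted p under 0.05 the members gave 4 of 26 spots for 3 h over 0 h, beside 7.47% of all, namely the first spots of CASP8, CASP6, BIRC2 and APAF1, all lower at 3 h. For 6 h over 3 h there were 6 of 26 from 3 genes, beside 8.52%, of which 4 belong to CASP8 and point in both directions. For 9 h over 3 h there were 4 of 26 from 2 genes, beside 11.5%, and for 9 h over 0 h 3 of 26, beside 8.86%. There were 0 for 6 h over 0 h, beside 1.04%, and 0 for 9 h over 6 h, beside 2.39%. The contrasts over 3 h share the 3 h arrays, and those over 0 h share the 0 h arrays.

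Other genes of the same pathway were described from lists by role, and none of them was called at any time without a replicate block, a dye coefficient or robust regression. Of 7 other caspases 4 were measured, with a median of −0.042 at 9 h, and the smallest p there was that of CASP1, the inflammasome protease, at −0.21 (adjusted p = 0.368). Its arrays gave 0.097, −0.077, −0.084 and −0.79 in replicates 1 to 4, so that replicate 4 stood far below the others. Of 5 other IAP genes all were measured, with a median of 0.030 at 9 h. Among these BIRC5, which encodes the mitotic protein survivin, gave 0.21, 0.18, 0.20 and 0.32 at 6 h (adjusted p = 0.5289). At 9 h BIRC5 gave 0.25, −0.033, 0.19 and 0.73, with a mean of 0.29 (adjusted p = 0.09502), and replicate 4 was again the highest array.

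Of 7 mitochondrial factors and IAP antagonists all were measured, with a median of 0.0032 at 9 h. XAF1, which antagonises XIAP, was lower in treated cells on all 4 arrays of 9 h, at −0.54, −0.0099, −0.56 and −0.31, with a mean of −0.35 (adjusted p = 0.07852), and its mean was −0.29 at 3 h. Its mean was −0.036 at 0 h, and its 3 spots ranged from −0.29 to −0.040 at 3 h. At 9 h the 3 spots ranged from −0.49 to −0.25. The lowest of them (adjusted p = 0.09814) was called with a replicate block (adjusted p = 0.01239), a dye coefficient (adjusted p = 0.02537) and robust regression (adjusted p = 0.03439). In that order these settings called 944, 696 and 393 of all 28970 spots at 9 h, beside 147 in the main fit. Under the other alternatives no gene of these lists was called at 9 h. Of 6 adaptors and platform proteins 4 were measured, with a median of −0.11 at 9 h. FADD, which links death receptors to caspase-8, was below 0 on all 4 arrays of 9 h at −0.24, −0.35, −0.10 and −0.47. The mean there was −0.29 (adjusted p = 0.1783), and at 6 h it was −0.34 (adjusted p = 0.5287). At 0 h FADD already averaged −0.17, with −0.32, −0.49, 0.11 and 0.022 in replicates 1 to 4. Its other spot, at −0.42 for 9 h (adjusted p = 0.1296), was called with a replicate block (adjusted p = 0.04316). That spot averaged 0.091 at 0 h and −0.11 at 6 h.

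All 14 genes for caspase substrates and executing nucleases were measured, with a median of −0.027 at 9 h. Of their first spots 5 of 14 had an unadjusted p under 0.05, beside 18% of all spots. That share counts every spot, whereas the choice of the first spot favours a low p, so the shares are not like for like. Of these 5 first spots, those of ROCK1, LMNA and DFFB were above 0 and those of BID and SPTAN1 below. SPTAN1 gave −0.52, 0.11, −0.11 and −1.10 at 9 h, with a mean of −0.41, and already averaged −0.36 at 0 h. DFFB and BID had spots on both sides of 0. The 3 spots of DFFB ran from −0.071 to 0.13, and the 3 of BID from −0.36 to 0.051. Of the 5 genes only ROCK1 falls under the rule for named genes. ROCK1, a kinase whose cleavage by caspases drives membrane blebbing, gave 0.13, 0.18, 0.14 and 0.46 at 9 h, with a mean of 0.23 (adjusted p = 0.1653), and its other spot averaged 0.057. The monocytic markers that define this cell line can show a shift here and no level. Of 14 such markers 12 were measured, with medians of −0.14, 0.050, −0.095 and −0.049 in order of time. Of the 12, 2, 11, 2 and 3 lay above 0 in the same order, beside 48.6%, 48.7%, 47.7% and 50.8% of all genes. The signs of the marker medians were opposite to those of the members at 0, 3, 6 and 9 h, and so also before treatment. At 9 h the values ran from −0.45 to 0.10, the lowest being CEBPA, a myeloid transcription factor (adjusted p = 0.0919). CEBPA already averaged −0.19 at 0 h, and its 3 spots ran from −0.45 to −0.25 at 9 h. Of 6 T cell markers 5 were measured, with a median of 0.061 at 9 h and values from 0.0034 to 0.064, the highest being CD3D, a chain of the T cell receptor complex. The part of such markers in the members' values was not tested.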

How the data were processed

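RNA of treated and control U937 cells was hybridised to 16 Agilent arrays of 2 colours. Per the methods, the authors read spots with GenePix Pro, corrected background with normexp, and used loess on each array and Aquantile across arrays. What they deposited are log2 ratios, taken as Cy5 over Cy3, and any further centring is not stated in the sources. The sign of replicates 3 and 4 was changed to give treated over control.

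The table holds 45220 spots. A value on all arrays was present for 40563 and absent for 4657. Left out were 11507 spots that the annotation table does not list and 86 with several symbols, which left 28970. Of these, 28940 matched the GRCh38.p14 gene table, and 0 symbols changed. Intensities, flags and spot weights were not used here. limma 3.58.1 (R 4.3.3) fitted a linear model to the 16 arrays together, 1 coefficient for each time (lmFit, eBayes, prior df 3.29, residual df 12), and p-values were adjusted by Benjamini-Hochberg over all spots, separately for each time or contrast. Differences between times were contrasts of that fit, and 9 h over 3 h was added after the values were seen. Precision is limited by the 4 arrays of a time. The labels call the replicates biological. Which cultures share a day is not stated in the sources.

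All members and all their spots are named, and from each other list every called gene and the gene with the smallest p at 9 h. Members and lists were chosen with earlier results of these data known. Alternatives were a fixed and a random replicate block (statmod 1.5.0), a dye coefficient, robust regression, array weights, separate fits, scaling, centring, the spots tested or averaged, and leaving out each replicate. The fit was tested on simulated data whose noise was independent between arrays, with the same spread for a spot on each. Those data held no dye pattern and no wider array, so they do not test the fit for either. Figures were drawn with Python 3.11.15 and matplotlib 3.10.9, and promoter letters came from RefSeq.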

Additional observations from a re-analysis of the deposited data

Results flagged for a closer look

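A pair of arrays stood off from the other 3 of their time point, by the gap to the nearest array over the whole range (Dixon's ratio, at its 95% critical value). Among 36 groups of 4 arrays checked for the first spots of the members these 2 exceeded it, and chance exceeds it in about 1 in 20 groups. For CASP8 spot 1 at 3 h, replicate 2 was at −0.405, with the others from −0.178 to −0.162 (ratio 0.931). For CFLAR spot 1 at 9 h, replicate 4 was at 0.556, with the others from −0.0604 to 0.00256 (ratio 0.898).

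For APAF1, all 4 arrays of 3 h lay below 0 and all 4 of 0 h and of 9 h above. The difference of 3 h over 0 h was −0.267 (limma, adjusted p = 0.655), and that of 9 h over 3 h was 0.338 (limma, adjusted p = 0.332).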

How the results depend on the processing

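No member spot was called at any time or in any contrast under any alternative run. Of 468 single-gene values under the alternatives, 444 kept their sign and their side of the threshold, 23 changed sign at an unadjusted p over 0.05 in both fits, and 1 turned round, CASP8 at 3 h, which was 0.033 as the mean of its spots. Counts of member spots at an unadjusted p under 0.05 moved more. At 0 h (0 spots) they were 3 with a replicate block, 1 with a random replicate block, 3 with a dye coefficient, 2 with robust regression, 2 with array weights, 1 with each time point fitted on its own arrays, 2 with arrays scaled, and 0 to 2 when 1 replicate was left out (2 without replicate 4). At 6 h (0 spots) they were 1 with a dye coefficient, 8 with robust regression, 1 with array weights, 4 on own arrays, and 0 to 5 when 1 replicate was left out (5 without replicate 2). At 9 h (3 spots) they were 1 on own arrays, 1 with arrays scaled, and 1 to 3 when 1 replicate was left out (1 without replicate 3). The share of all spots at this p was not counted under the alternatives, so these counts have nothing to be set beside. Of the 26 member spots 12 are of CASP8, and 10 of these moved together, so a count can rest on 1 gene. Genes of the other apoptosis lists called at 9 h (0 genes) were 2 with a replicate block (XAF1 and FADD), 1 with a dye coefficient and 1 with robust regression (XAF1 in both). The cause was not tested.

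Over all spots the count called at 9 h (147) was 944 with a replicate block, 696 with a dye coefficient, 393 with robust regression, 84 with arrays scaled, 70 when adjusted over all spots, 92 genes with spots averaged, 291 genes with only first spots, 0 with array weights, on own arrays or adjusted over 3, 6 and 9 h together, and 0, 3, 0 and 82 without replicates 1, 2, 3 and 4. At 0, 3 and 6 h robust regression called 1, 4 and 7. Deviations of arrays with the same replicate number correlated at 0.0612 to 0.655 (median 0.322, 23 of 24 pairs over 0.1). Those of other numbers with the same dye correlated at −0.0975 to 0.670 (median 0.231). These ranges overlap, and the numbers were not taken to pair the arrays. All 48 pairs of opposite dye correlated below 0, at −0.555 to −0.0462 (median −0.281). The main fit has no dye term, so what follows the dye stays in its spread.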
